A study of Homo sapiens with 18 samples.

Results

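The ARMCX family comprises 6 human genes, ARMCX1 to ARMCX6, which encode armadillo repeat proteins and lie on chromosome X. They were picked from the 58815 genes of the count table by symbol. The family was chosen because ARMCX2 was lower after WDR5 knockdown by a smaller margin in BrM3 than in LM2 cells, so the ARMCX2 values of those lines are given as a description and were not tested. Its response in BoM cells, and the 5 other genes, took no part in that choice. All 6 genes passed the filter on low counts, which kept 12287 genes, and the lowest of their highest normalized counts was 625, for ARMCX4.

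The question behind the libraries was which genes depend on WDR5, a scaffold subunit of the KMT2 histone methyltransferase complexes, in metastatic triple-negative breast cancer. In all, 3 derivatives of the MDA-MB-231 breast cancer line were used, LM2 cells selected for growth in lung, BrM3 cells for brain (written BrM2 in the sample labels) and BoM cells for bone. The hairpin in each derivative, shCtrl as the control or shWDR5, was induced by doxycycline, and every group, controls included, received doxycycline at 1 μg/mL for 3 days. There were 3 libraries per line and hairpin, 18 in all, and the replicates were taken at different passages. A single WDR5 hairpin was sequenced, so an effect of WDR5 loss and one of this hairpin cannot be told apart.

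WDR5 itself fell in every line. Its level in shCtrl and shWDR5 libraries was 124 ± 11.0 and 23.0 ± 2.24 CPM (counts scaled to library size, SD, n = 3) for LM2, 85.7 ± 6.90 and 21.8 ± 1.41 CPM for BrM3, and 89.0 ± 1.68 and 19.0 ± 4.38 CPM for BoM. The log2 fold changes were -2.43, -1.97 and -2.23, with adjusted p-values of 1.76e-08, 4.24e-07 and 6.16e-08. Libraries held 17485841 to 119667013 counts. The cells had the epithelial keratins KRT8 and KRT18 at 193 to 499 CPM and vimentin at 1487 to 2222 CPM. KRT19 stood at 24.2 to 169 CPM, EPCAM at 4.37 to 10.1 CPM and ZEB1 at 61.7 to 157 CPM. Of the receptor genes checked, ESR1 and PGR stayed below 1 CPM, but ERBB2 stood at 41.3 to 82.9 CPM. CDH1, CDH2 and the hepatocyte marker ALB also stayed below 1 CPM. Of the markers of other cell types, the leukocyte gene PTPRC reached 1.05 CPM, the endothelial gene PECAM1 4.65 CPM and the astrocyte gene GFAP 9.93 CPM. Of these 4 genes, 2 could be tested: GFAP was called lower in each line (log2 fold changes of -0.96, -1.30 and -1.44) and PECAM1 higher in LM2 (0.71). Their summed level was 11.2 to 12.4 CPM in LM2, 4.31 to 4.73 CPM in BrM3 and 7.97 to 10.3 CPM in BoM controls, and 8.02 to 10.5, 2.92 to 3.36 and 5.63 to 7.61 CPM with shWDR5; its part in the results on the ARMCX genes was not tested. EPCAM was called lower in BrM3 and BoM, and KRT8 and KRT19 in BoM. In bulk RNA, fewer expressing cells and less RNA per cell cannot be told apart.

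ARMCX proteins are found in placental mammals and are thought to derive from the older gene ARMC10. Several of them sit in the outer mitochondrial membrane, and ARMCX3 binds the Miro and TRAK adaptors that couple mitochondria to kinesin motors in neurons. ARMCX1 promotes mitochondrial transport in axons and was first described as a gene whose expression is lost in carcinomas. The family belongs with the GPRASP proteins, which sort G protein-coupled receptors, to a larger group that shares a carboxy-terminal armadillo-like region.

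On GRCh38, 5 of the genes lie close together. ARMCX4, the longest, runs from chrX:101418287-101533459 on the plus strand, followed by ARMCX1 at chrX:101550547-101554700, also on the plus strand. ARMCX6 at chrX:101615118-101618001 and ARMCX2 at chrX:101655281-101659850 are on the minus strand, with ARMCX3 between them on the plus strand at chrX:101622797-101627843. ARMCX5 stands apart, at chrX:102599168-102604159 on the plus strand. Reads of some members can be shared with other genes. Of the 50-base stretches of ARMCX6 exons, 40.4% also occur in the pseudogene ARMCX7P or in ENSG00000290908, so the ARMCX6 counts are uncertain, although ARMCX7P itself held no more than 13 counts in any library. ARMCX5 shares 14.7% with the readthrough gene ARMCX5-GPRASP2 and with ENSG00000270050, and ARMCX3 shares 9.13% with the antisense gene ARMCX3-AS1, which held at most 1 count.

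Start-site sequences are shown because the genes resemble each other there. RefSeq promoter windows, which span 250 bases before the start to 50 after it, were at hand for 5 members, with 2 windows for ARMCX4. ARMCX3 was not among them. The palindromic E-box CACGTG, which MYC, MAX and related factors can bind, occurred in 4 of the 6 windows. Across all 35116 windows it occurred in 7.26%. The 30 bases around each match, read 5′ to 3′ along the gene with the E-box in capitals, are as follows.
ARMCX1: tgacgtggccctCACGTGagctggagccga
ARMCX2: cgatgcagccctCACGTGaccaggagctga
ARMCX4: acgcgcggtcctCACGTGacccggagctgc
ARMCX6: tgacgtggccgtCACGTGaccaagagccgc
The stretches lie at chrX:101550506-101550535, chrX:101659893-101659922, chrX:101485397-101485426 and chrX:101617984-101618013. In ARMCX1 the E-box began 29 bases before the RefSeq start, in ARMCX2 60, in the downstream window of ARMCX4 47 and in ARMCX6 1. Each copy read TCACGTGA, a longer form that was spelled out only after the windows had been read and that occurred in 0.98% of all windows. The upstream ARMCX4 window and the ARMCX5 window held no E-box.

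The ARMCX1, ARMCX2 and ARMCX6 windows are printed in full, again with the E-box in capitals, to show how far the likeness extends. They are chrX:101550297-101550596 on the plus strand, and chrX:101659801-101660100 and chrX:101617951-101618250 on the minus strand, from GRCh38.p14.
ARMCX1: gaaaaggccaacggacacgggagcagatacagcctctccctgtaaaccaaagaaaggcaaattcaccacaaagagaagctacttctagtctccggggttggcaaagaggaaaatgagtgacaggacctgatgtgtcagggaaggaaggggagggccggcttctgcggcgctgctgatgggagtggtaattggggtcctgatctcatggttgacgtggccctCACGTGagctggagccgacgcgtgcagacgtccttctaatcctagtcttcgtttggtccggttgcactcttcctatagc
ARMCX2: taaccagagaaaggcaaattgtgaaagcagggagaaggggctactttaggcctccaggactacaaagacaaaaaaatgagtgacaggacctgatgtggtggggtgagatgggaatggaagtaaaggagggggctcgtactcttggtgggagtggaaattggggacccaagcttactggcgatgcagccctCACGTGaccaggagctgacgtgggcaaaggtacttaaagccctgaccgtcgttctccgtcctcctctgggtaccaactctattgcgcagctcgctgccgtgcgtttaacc
ARMCX6: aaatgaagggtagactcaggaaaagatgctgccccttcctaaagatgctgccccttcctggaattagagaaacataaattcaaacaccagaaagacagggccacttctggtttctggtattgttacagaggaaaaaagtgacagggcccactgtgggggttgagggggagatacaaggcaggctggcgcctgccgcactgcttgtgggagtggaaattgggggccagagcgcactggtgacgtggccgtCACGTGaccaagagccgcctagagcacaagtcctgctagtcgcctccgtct
ARMCX1 and ARMCX2 share the run aaaatgagtgacaggacctgatgtg, 25 bases long, which begins 141 and 178 bases before their starts. ARMCX2 and ARMCX6 share gtgggagtggaaattgggg, 19 bases long. The other motifs searched, on both strands, were TGACGTCA (the CRE), AANATGGCG (YY1), TCGCGAGA (core of the ZBTB33 motif), ACTACAATT (part of the ZNF143 motif) and TATAAA (the TATA box), none of which occurred in a member's window, against 1.85%, 3.19%, 1.15%, 0.336% and 11.5% of all windows. CCAAT occurred in 5 member windows (34.6% of all), TGACG in 4 (24.6% of all) and GGGCGG in 1 (45% of all). TGACG is part of the CRE, and CACGTG lies within TCACGTGA.

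In control cells, 5 of the 6 genes had their highest mean level in BrM3, among them ARMCX2, on which the family was chosen. The share of all tested genes with their highest level in BrM3 was not counted. Levels between genes are compared as normalized CPM per kb of exon. In LM2 shCtrl cells ARMCX1 was the highest at 19.6 ± 1.71 per kb (SD, n = 3 here and below). ARMCX2 at 9.21 ± 0.453, ARMCX3 at 8.80 ± 0.386 and ARMCX6 at 8.12 ± 0.503 followed, neighbours that did not differ beyond their spread. ARMCX5 stood at 4.15 ± 0.374 and ARMCX4 at 1.00 ± 0.114.

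The order was different in the other lines. In BrM3, ARMCX1 at 38.8 ± 1.15 per kb and ARMCX2 at 37.6 ± 0.506 per kb were level within their spread, ahead of ARMCX6 at 16.4 ± 1.34, ARMCX3 at 11.1 ± 1.46, ARMCX5 at 6.04 ± 0.364 and ARMCX4 at 0.921 ± 0.00105. With the longest transcript in place of all exons as the length, ARMCX2 at 47.3 per kb stood above ARMCX1 in BrM3. In BoM, ARMCX1 at 20.8 ± 0.173 led, ARMCX2 at 14.9 ± 0.965 and ARMCX6 at 14.6 ± 0.955 were within their spread of each other, and ARMCX3 at 7.16 ± 0.149, ARMCX5 at 4.56 ± 0.509 and ARMCX4 at 0.754 ± 0.0431 followed.

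The family's level per kb, summed over the members, was 50.8 ± 1.81 for LM2 shCtrl cells, 110.9 ± 1.85 for those of BrM3 and 62.8 ± 0.342 for those of BoM. The ARMCX2 share of the sum in these 3 groups was 18.1%, 33.9% and 23.7%. After knockdown the sums were 40.1 ± 0.656, 105.6 ± 5.53 and 55.9 ± 3.01, and its shares 10.6%, 28.3% and 16.5%. In BoM shWDR5 cells ARMCX6 at 16.9 ± 3.26 per kb and ARMCX1 at 16.6 ± 1.28 per kb were the highest and did not differ beyond their spread. With the longest transcript as the length, ARMCX6 stood at 21.9 per kb there and ARMCX1 at 16.6 per kb. The ARMCX6 level is uncertain, since many of its exon stretches also occur in other genes.

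**Figure D1:**
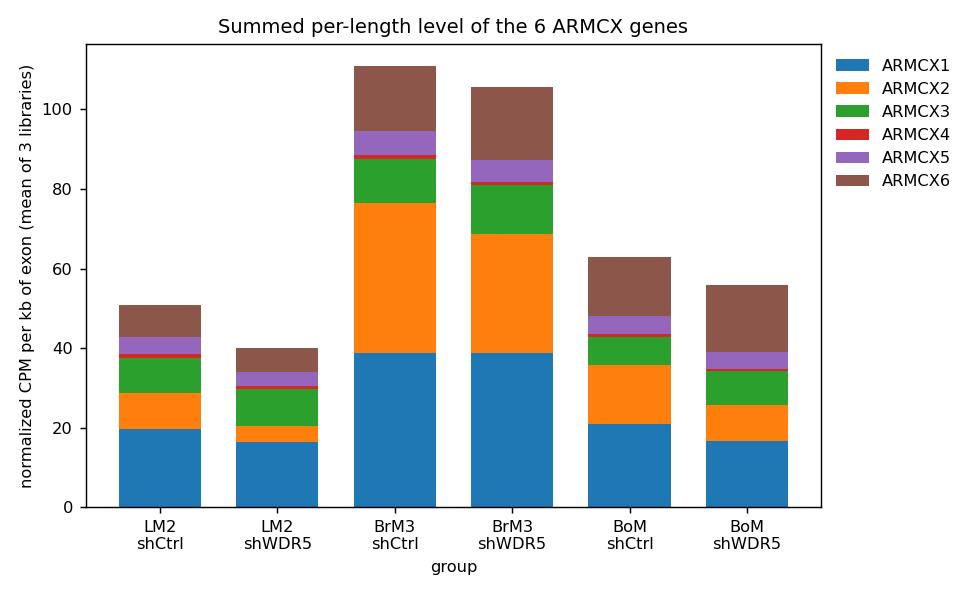
Stacked bars of the mean normalized CPM per kb of exon of the 6 ARMCX genes (3 libraries per bar) in the 6 groups, from 0. The BrM3 bars reach 110.9 and 105.6, and ARMCX1 and ARMCX2 make up most of their height.

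Between lines, control levels were compared within the same fit. BrM3 had 4 of the 5 tested members higher than LM2, where 24.2% of all tested genes were higher and 23.4% lower. ARMCX1, with 80.6 to 85.3 CPM in the BrM3 shCtrl libraries against 38.2 to 45.4 CPM in LM2, was 0.99 higher on the log2 scale (SE 0.09, adjusted p = 7.16e-08). ARMCX6, with 37.6 to 44.3 CPM against 18.9 to 21.4 CPM, was 1.01 higher (SE 0.13, adjusted p = 3.95e-06). None of the BrM3 libraries overlapped those of LM2 for either gene. The share of all tested genes without overlap was not counted, here or for the other pairs of lines. ARMCX5 was 0.54 higher (SE 0.11, adjusted p = 0.000726) and ARMCX3 0.34 higher (SE 0.13, adjusted p = 0.037). The ARMCX3 call was lost without any of 4 shCtrl libraries in turn (LM2 replicates 2 and 3, BrM3 replicate 1 and BoM replicate 1), with adjusted p-values of 0.0812, 0.1, 0.192 and 0.0551. ARMCX4 had a log2 difference of -0.12 (95% interval -0.42 to 0.17, adjusted p = 0.482). For ARMCX2, 131 to 134 CPM in BrM3 against 31.6 to 34.5 CPM in LM2 gave a log2 difference of 2.03 (SE 0.08). That difference was not tested and is not ranked against the other members, since the choice used these libraries.

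BoM and LM2 were closer. ARMCX6, at 34.0 to 38.8 CPM in BoM, was 0.85 higher than in LM2 (SE 0.13, adjusted p = 2.63e-05), and ARMCX4, at 10.1 ± 0.575 CPM against 13.4 ± 1.53 CPM with no overlap, was lower, with a log2 difference of -0.41 (SE 0.14, adjusted p = 0.0186). Among all tested genes 26% were higher and 25.8% lower. The ARMCX4 call did not pass without LM2 shCtrl replicate 2 (adjusted p = 0.0991) or BoM shCtrl replicate 2 (adjusted p = 0.0686), nor with no filter on low counts (adjusted p = 0.0597). ARMCX1, ARMCX3 and ARMCX5 had log2 differences of 0.09, -0.30 and 0.14, with adjusted p-values of 0.412, 0.0642 and 0.329. ARMCX3 passed without BrM3 shWDR5 replicate 1 (adjusted p = 0.023) or BoM shWDR5 replicate 1 (adjusted p = 0.0497), which enter the fit through its shared spread. It also passed with GC correction (0.00361) and in a fit of the shCtrl libraries of all 3 lines alone (0.02). ARMCX2 stood at 49.7 to 56.5 CPM in BoM, 0.69 above LM2 on the log2 scale (SE 0.08) and not tested.

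Against BrM3, BoM had 3 of the 5 tested members lower and 0 higher, where 19.7% of all tested genes were lower and 17.8% higher. ARMCX1 had a log2 difference of -0.90 (SE 0.09, adjusted p = 5.64e-07), ARMCX3 of -0.64 (SE 0.13, adjusted p = 0.001) and ARMCX5 of -0.41 (SE 0.11, adjusted p = 0.00946). Without BoM shCtrl replicate 2 the adjusted p of ARMCX5 was 0.0512. ARMCX4 at -0.29 (adjusted p = 0.109) and ARMCX6 at -0.17 (adjusted p = 0.308) did not pass. The ARMCX2 difference was -1.34 (SE 0.08), not tested.

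**Figure D2:**
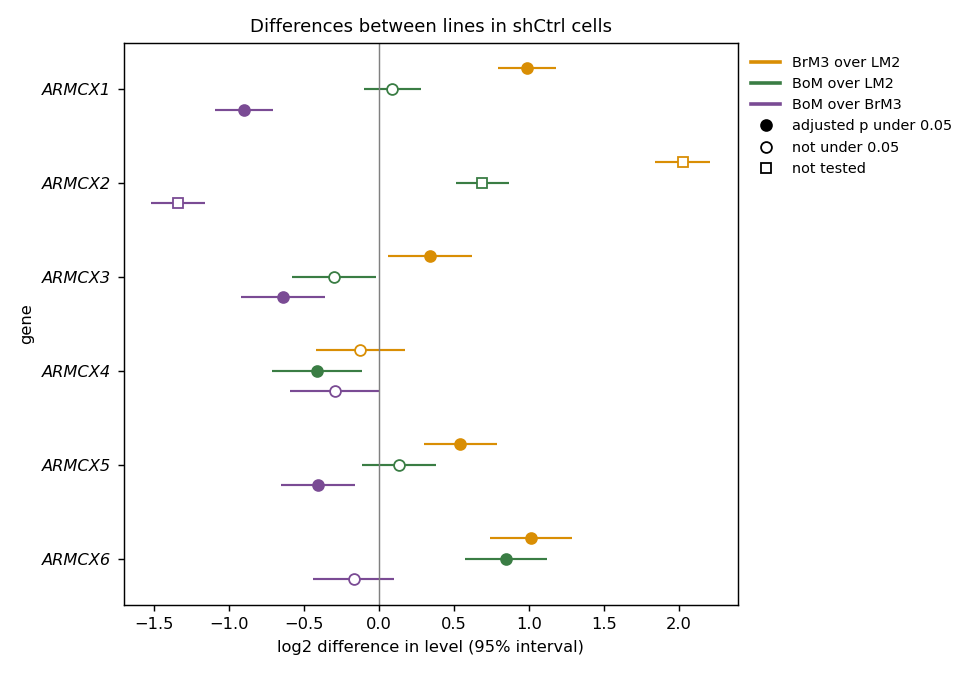
Log2 difference in shCtrl level between each pair of lines for the 6 ARMCX genes, with 95% intervals; filled circles have an adjusted p under 0.05, open circles do not, and squares were not tested. The BrM3 over LM2 difference of ARMCX2 is 2.03, and ARMCX4 is alone in lying below 0 in that comparison.

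After WDR5 knockdown, ARMCX2 was lower in every line. In LM2 the shCtrl libraries had 31.6, 31.9 and 34.5 CPM and the shWDR5 libraries 16.2, 15.2 and 13.8 CPM. In BrM3 the values were 134.4, 131.2 and 134.2 CPM against 102.5, 104.1 and 110.7 CPM. In BoM they were 56.5, 52.1 and 49.7 CPM against 32.8, 30.8 and 34.1 CPM. No shWDR5 library overlapped the controls of its line. The share of all tested genes without such overlap was not counted, for this or any other comparison. The BrM3 libraries with the hairpin still held more ARMCX2 than any control library of LM2 or BoM.

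The BoM response of ARMCX2, which the choice of the family did not use, passed the test, with a log2 fold change of -0.70 (SE 0.08, adjusted p = 2.59e-05, 3 libraries per group). It was called in all 25 alternative fits, with adjusted p-values from 3.02e-15 to 0.00781. The LM2 fold change was -1.11 (SE 0.08) and that of BrM3 -0.33 (SE 0.08), both without a test. The difference between these responses, by which the family was chosen, was 0.78 (SE 0.12) and was not tested. Of all tested genes 0.00814% were called in that comparison, from which nothing is read about ARMCX2. BoM lay between the other lines, with a response 0.42 above that of LM2 (SE 0.12) and a difference of -0.36 from that of BrM3 (SE 0.12). WDR5 with the hairpin stood at 23.0 CPM in LM2 and 21.8 CPM in BrM3, while its control levels were 124 and 85.7 CPM, so that its own log2 fold change was 0.46 higher in BrM3 (SE 0.19, not tested). The part of WDR5 in the ARMCX2 difference was not tested.

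Of the other members, 0 of 5 were called in LM2, where 4.84% of all tested genes fell and 1.5% rose. At an unadjusted p under 0.05, 3 members were lower and 0 higher, against 12.6% and 7.63% of all tested genes. DESeq2 called 2 lower (ARMCX1 and ARMCX6) and 0 higher, against 6.05% and 3.38%. ARMCX6 had 20.3, 18.9 and 21.4 CPM in the shCtrl and 14.7, 14.8 and 16.2 CPM in the shWDR5 libraries, which did not overlap, with a log2 fold change of -0.41 (SE 0.13, adjusted p = 0.065; 0.00506 to 0.205 over the alternatives). It passed without BoM shWDR5 replicate 1 (adjusted p = 0.0155). ARMCX1 had 38.2, 40.9 and 45.4 CPM against 33.6, 33.6 and 36.6 CPM, a log2 fold change of -0.27 (SE 0.09, adjusted p = 0.0867; 0.0358 to 0.5 over the alternatives), which passed without LM2 shCtrl replicate 1 (adjusted p = 0.0491). ARMCX4 stood at -0.38 (adjusted p = 0.119), ARMCX5 at -0.20 (adjusted p = 0.367) and ARMCX3 at 0.05 (adjusted p = 0.876). The median over these 5 was -0.27, against -0.00089 over all tested genes.

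In BrM3 the 5 other members were also all below the threshold of calling, where 8.02% of all tested genes fell and 2.94% rose. Only 1 of them, ARMCX4, had an unadjusted p under 0.05 (0.0294), in the lower direction, where 15.4% of all genes were lower and 9.62% higher by that rule. DESeq2 called 0, against 9.33% lower and 5.27% higher. ARMCX1 had 81.7, 85.3 and 80.6 CPM in the shCtrl and 89.5, 77.3 and 80.2 CPM in the shWDR5 libraries, which overlapped, with a log2 fold change of -0.0035 (95% interval -0.19 to 0.19, adjusted p = 0.988). ARMCX4 had a fold change of -0.33 on the log2 scale (adjusted p = 0.145), ARMCX5 of -0.14 (0.498), ARMCX3 of 0.15 (0.512) and ARMCX6 of 0.17 (0.434). The median over these 5 was -0.0035, against -0.00502 over all tested genes.

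In BoM, 2 of 6 members fell and 0 rose, where 10.8% of all tested genes fell and 5.41% rose. Beside ARMCX2 this was ARMCX1, with 43.9, 44.6 and 44.4 CPM in the shCtrl and 34.0, 33.4 and 38.4 CPM in the shWDR5 libraries and a log2 fold change of -0.33 (SE 0.09, adjusted p = 0.018). The groups did not overlap. The ARMCX1 call was lost without BoM shCtrl replicate 2 (adjusted p = 0.0559) or BoM shWDR5 replicate 2 (adjusted p = 0.0719), with no filter on low counts (0.179) and in a fit of BoM alone (0.0982). ARMCX4, with 9.41 to 10.5 CPM against 6.80 to 8.76 CPM, had a log2 fold change of -0.41 (SE 0.14, adjusted p = 0.0568). It passed without BoM shWDR5 replicate 1 (adjusted p = 0.024) or LM2 shWDR5 replicate 2 (0.0479) or 3 (0.0327). ARMCX5 at -0.16 (adjusted p = 0.384), ARMCX6 at 0.21 (0.269) and ARMCX3 at 0.25 (0.214) did not pass. Without BoM shWDR5 replicate 1, ARMCX6 was called higher, with a log2 fold change of 0.36 (adjusted p = 0.0283). With the replicate number as a block, since same-numbered BoM libraries deviated together, 3 of 6 members were lower and 0 higher, against 15.1% and 11.4% of all tested genes. The block called ARMCX4 (adjusted p = 0.0153) beside ARMCX1 (0.0102) and ARMCX2 (9.03e-05). The median over the 6 was -0.24, against 0.02 over all tested genes.

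Across all tested genes, 76.4%, 73.2% and 66.6% of the calls in LM2, BrM3 and BoM were lower. With DESeq2 those shares were 64.2%, 63.9% and 56.5%, and with a correction for GC content 49.6%, 43.5% and 44.3%. The members kept the direction of their responses under both, apart from ARMCX1 in BrM3, whose log2 fold change was then 0.0065 and 0.0311.

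**Figure D3:**
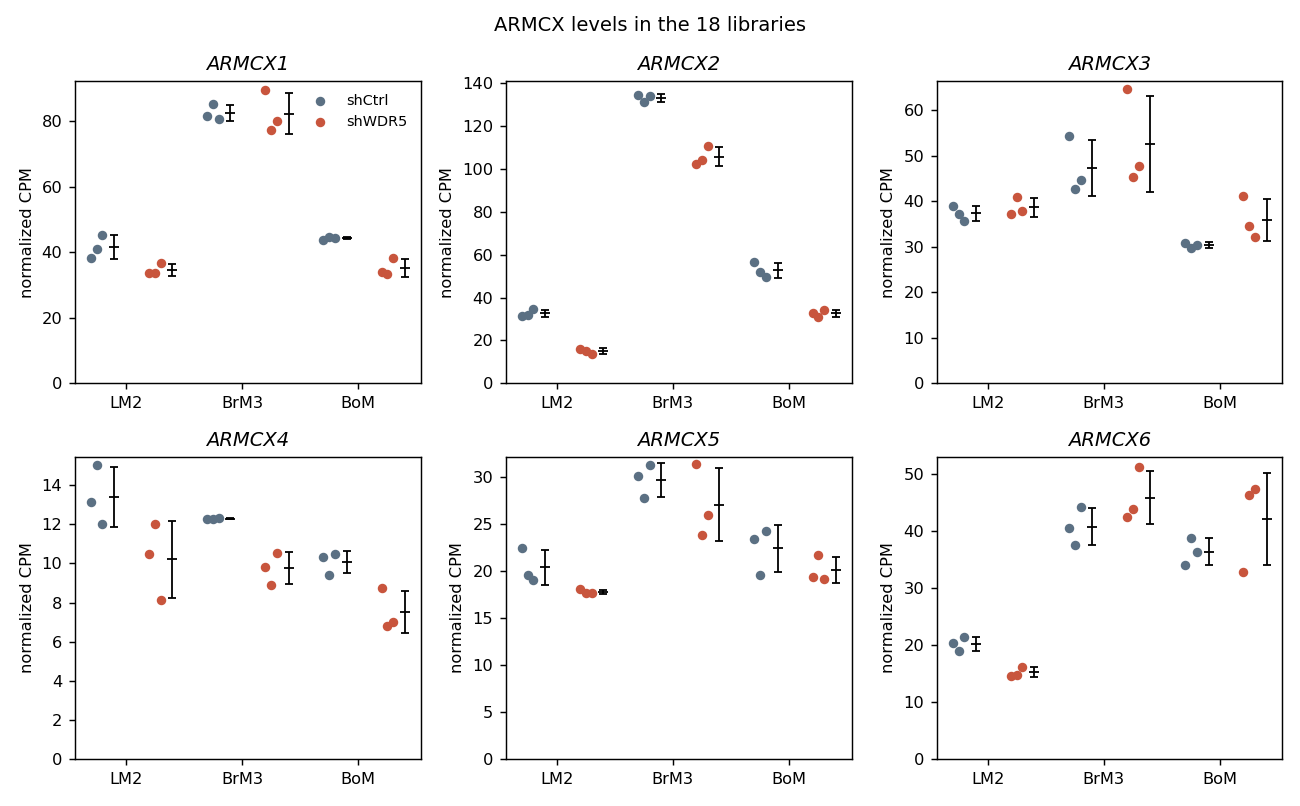
Normalized CPM of each ARMCX gene in the 18 libraries (points, shCtrl grey and shWDR5 red, by line), with the mean and SD of 3 libraries beside each group and axes from 0. ARMCX2 separates the hairpins in every line, while the BrM3 groups of ARMCX1 overlap.

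The responses of the members were set against each other between lines. ARMCX6 had log2 fold changes of -0.41 in LM2 and 0.21 in BoM, a difference of 0.62 (SE 0.18). That difference had an unadjusted p of 0.00275 and an adjusted p of 0.342 (0.0218 to 0.656 over the alternatives). Between BoM and LM2 0% of all tested genes were called, with 638 (5.19%) at an unadjusted p under 0.05 and 41 (0.334%) by DESeq2, so that no member was called either. In BoM the ARMCX6 libraries with shWDR5 spread widely, at 32.8, 46.3 and 47.4 CPM, against 34.0, 38.8 and 36.3 CPM with shCtrl.

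Between BoM and BrM3, 0.00814% of the tested genes were called, and 0 of the 5 members. At an unadjusted p under 0.05, 1 member was lower, ARMCX1, with a difference of -0.33 (SE 0.12, adjusted p = 1), where 2.9% of all tested genes passed that rule. DESeq2 called 0 members, against 0.0332% of all genes. For BrM3 against LM2, the comparison that led to the choice, the differences were 0.58 (SE 0.18) for ARMCX6, 0.26 (SE 0.12) for ARMCX1, 0.10 (SE 0.18) for ARMCX3, 0.06 (SE 0.16) for ARMCX5 and 0.05 (SE 0.19) for ARMCX4. None was tested, and the 0.78 of ARMCX2 is not ranked against them, since the choice rested on it.

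**Figure D4:**
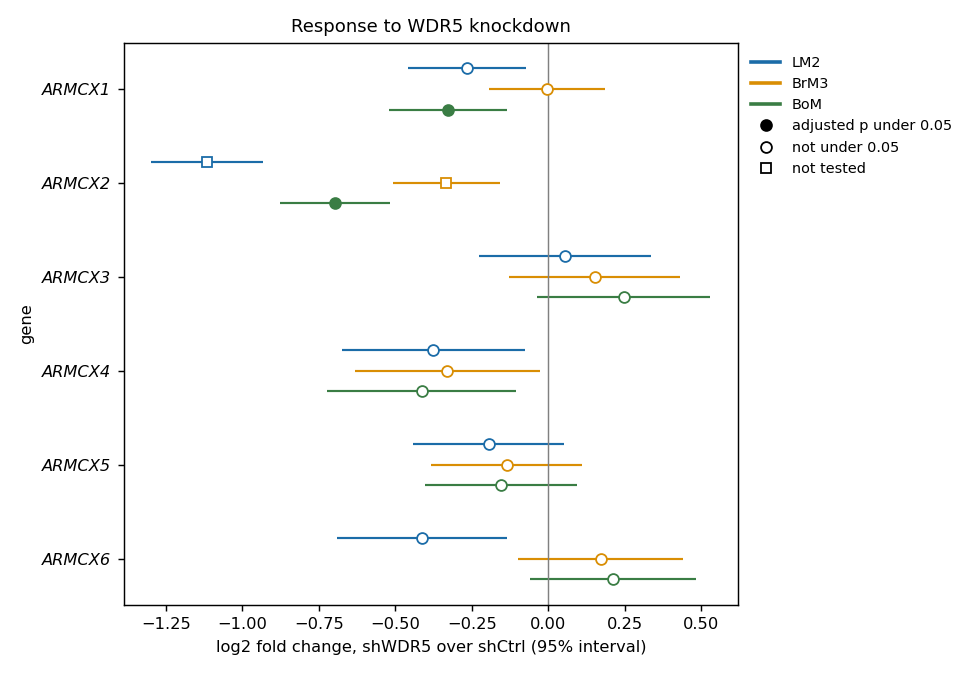
Log2 fold change of shWDR5 over shCtrl for each ARMCX gene in LM2, BrM3 and BoM, with 95% intervals; filled circles have an adjusted p under 0.05, open circles do not, and squares were not tested. ARMCX2 runs from -1.11 in LM2 to -0.33 in BrM3, and ARMCX4 stays between -0.41 and -0.33.

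Over the 18 libraries, on log2 CPM, the gene most like ARMCX2 was MAGEH1, a MAGE family gene also on chromosome X, with Pearson's r = 0.993. MAGEH1 shCtrl levels were 5.06 ± 0.293 CPM for LM2, 14.9 ± 0.35 CPM for BrM3 and 6.73 ± 0.604 CPM for BoM, and 2.30 ± 0.352, 12 ± 0.514 and 4.59 ± 0.258 CPM with shWDR5. It was thus lower after knockdown in each line, with log2 fold changes of -1.15, -0.31 and -0.56, which its likeness partly rests on and which are given with no test. AGAP2, RHOBTB1, GPRASP2 and ERBB3 came next with r of 0.987, 0.981, 0.979 and 0.979. The points share 6 groups, and with each group's mean taken out r fell to 0.52 for MAGEH1 and to between 0.06 and 0.38 for the other genes.

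The genes most like the other members were VNN1, ITGBL1 and F2RL2 for ARMCX1 (r of 0.983, 0.982 and 0.979), LYST, FGD6 and ABI2 for ARMCX3 (0.949, 0.948 and 0.944), and GOLPH3L, ARHGEF5 and PCNX2 for ARMCX4 (0.921, 0.916 and 0.914). For ARMCX5 they were TBP, TTC13 and ADD3 (0.956, 0.941 and 0.939), and for ARMCX6 C8orf33, DUSP11 and OVCH2 (0.966, 0.965 and 0.962). With group means taken out, r was -0.11 to 0.39 for the genes of ARMCX1 and -0.21 to 0.70 for those of ARMCX6. It was 0.80 to 0.90 for those of ARMCX3, 0.61 to 0.71 for ARMCX4 and 0.68 to 0.82 for ARMCX5. Among the members, ARMCX1 and ARMCX2 were the most alike (r = 0.924) and ARMCX4 and ARMCX6 the least (r = -0.368). With group means taken out, ARMCX1 and ARMCX2 had r = 0.075, so that their likeness lay between groups, while ARMCX3 and ARMCX5 kept r = 0.552.

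Of the nearest relatives, ARMC10 and GPRASP2 could be tested, and GPRASP2 fell in all 3 lines. Among all tested genes 4.84%, 8.02% and 10.8% fell in LM2, BrM3 and BoM. How many of them fell in all 3 lines at once was not counted, here or for the lists below. In shCtrl against shWDR5 cells GPRASP2 had 19.4, 17.5 and 15.3 CPM against 10.6, 10.2 and 8.97 CPM in LM2, a log2 fold change of -0.79 (SE 0.13, adjusted p = 0.00103). In BrM3 the libraries had 58.0, 49.5 and 52.5 CPM against 37.0, 37.6 and 42.1 CPM, a log2 fold change of -0.45 (SE 0.12, adjusted p = 0.0225), and in BoM 30.6, 25.3 and 25.3 CPM against 16.3, 16.1 and 12.7 CPM, with -0.85 (SE 0.13, adjusted p = 0.000221). The hairpins did not overlap in any line, and GPRASP2, like ARMCX2, was highest in BrM3. GPRASP2 overlaps ARMCX5-GPRASP2, whose group means were 1.83 to 2.90 CPM. ARMC10 had log2 fold changes of 0.01, 0.16 and 0.10, with adjusted p-values of 0.977, 0.35 and 0.552.

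Among 13 tested genes of mitochondrial transport, the numbers that fell in LM2, BrM3 and BoM were 2, 1 and 3, and 0 rose. Among all tested genes 4.84%, 8.02% and 10.8% fell, so that the 1 of 13 in BrM3 lies near the background. KLC4, a kinesin light chain, was called lower in every line, at log2 fold changes of -0.51, -0.48 and -0.41 (adjusted p = 0.0303, 0.0291 and 0.0485). SNPH, which encodes syntaphilin, an anchor of axonal mitochondria, fell in LM2 (-0.59, adjusted p = 0.0446) and BoM (-1.03, adjusted p = 0.000829), and had -0.51 in BrM3 (adjusted p = 0.0559). TRAK1, a motor adaptor, fell in BoM (-0.27, adjusted p = 0.0314), and had -0.19 (adjusted p = 0.19) in LM2 and -0.12 (adjusted p = 0.408) in BrM3. The list's medians were -0.11, -0.09 and 0.02 in LM2, BrM3 and BoM. Of 12 tested genes of mitochondrial fusion and fission, 0 were called in any line by edgeR. At an unadjusted p under 0.05 there were 1, 1 and 2 in LM2, BrM3 and BoM, the 2 being 1 lower and 1 higher. That rule held for 2480, 3080 and 3713 of all 12287 tested genes. DESeq2 called 1, 1 and 0 of the list, and 1158, 1793 and 2501 of all genes. OMA1, a protease of the inner membrane, had log2 fold changes of -0.49, -0.43 and -0.28 (adjusted p = 0.0532, 0.0606 and 0.19). In BoM the smallest adjusted p of the list was that of MFN2, a mitofusin of the outer membrane (log2 fold change -0.34, adjusted p = 0.0674, and 0.0173 with the replicate block), followed by YME1L1, an inner membrane protease (0.20, adjusted p = 0.122).

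The BEX and TCEAL genes, which encode small adaptor proteins and elongation factor-like proteins, lie on the same stretch of chromosome X beyond ARMCX2, and ARMCX5 lies among them. Of 8 tested members of that group, BEX2 and TCEAL8 fell in all 3 lines and BEX5 in BoM. That makes 2, 2 and 3 in LM2, BrM3 and BoM, where 4.84%, 8.02% and 10.8% of all tested genes fell. With the replicate block TCEAL3 was also called in BoM (log2 fold change -0.47, adjusted p = 0.00228, against 0.0552 without the block). BEX2 had log2 fold changes of -0.58, -0.78 and -1.61, with adjusted p-values of 0.019, 0.00114 and 4.77e-06. TCEAL8 had -0.77, -0.46 and -0.78, with adjusted p-values of 0.00149, 0.0259 and 0.000537. BEX5 had -1.22 in BoM (adjusted p = 6.01e-05), and -0.32 in BrM3 (adjusted p = 0.136). In LM2 its level was low, 0.259 CPM in the controls and 0.106 CPM with shWDR5 (adjusted p = 0.0597). The group's medians were -0.31, -0.16 and -0.33.

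Within 1 Mb of the span of the 6 genes, 106 other genes were in the table and 21 could be tested. Those that fell numbered 4 in LM2 and 5 each in BrM3 and BoM, and 0 rose. Of all tested genes 4.84%, 8.02% and 10.8% fell in these lines, and 1.5%, 2.94% and 5.41% rose. With the replicate block 5 neighbours fell in BoM and 3 rose (CENPI, GLA and TIMM8A, with log2 fold changes of 0.32, 0.27 and 0.38). Under that block 15.1% of all tested genes fell in BoM and 11.4% rose. DESeq2 called 2 neighbours higher in BoM, where it called 1089 genes higher in all. BEX2, TCEAL8, GPRASP2 and RPL36A were called in all 3, BEX5 in BoM and LINC00630 in BrM3 (log2 fold change -0.54, adjusted p = 0.0275). RPL36A, a ribosomal protein gene, had log2 fold changes of -1.05, -0.83 and -0.67 (adjusted p = 0.00108, 0.00374 and 0.00927); ribosomal protein genes have near-identical pseudogene copies, so its counts are uncertain. The neighbours' medians were -0.17, -0.11 and -0.09, and the other 15 tested neighbours were not called in any line by edgeR without the block. These counts overlap with the lists above, since BEX, TCEAL and GPRASP genes lie in this stretch.

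**Figure D5:**
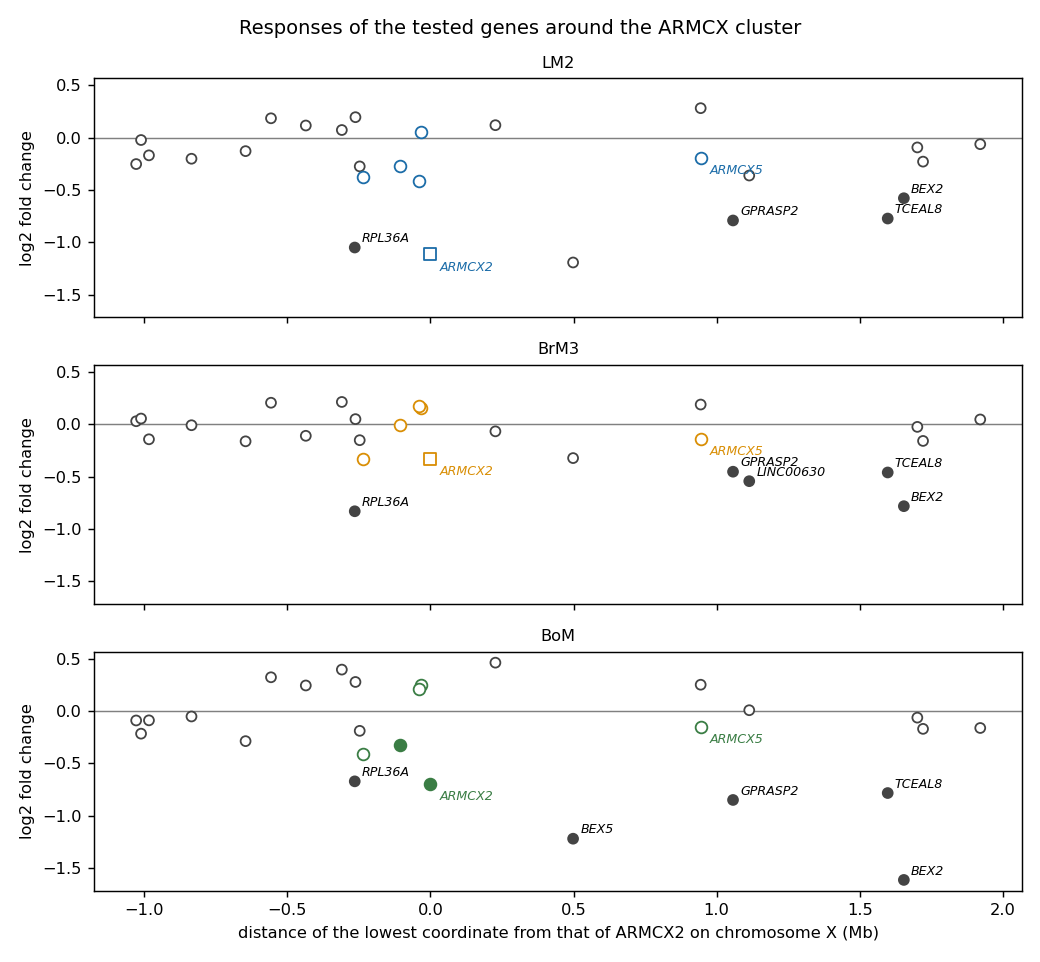
Log2 fold change of shWDR5 over shCtrl in each line for the ARMCX genes (coloured, squares not tested) and the 21 tested neighbours (dark), against distance from ARMCX2 in Mb; filled symbols have an adjusted p under 0.05. All called genes lie below 0, and of the called neighbours only RPL36A has a lower coordinate than ARMCX2. Some genes that were not called lie away from 0, such as BEX5 in LM2 at -1.19 and ZMAT1 in BoM at 0.46.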

How the data were processed

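RNA from 18 libraries was sequenced by the study with a stranded mRNA kit. Per the labels, CASAVA 1.8.2, STAR 2.7.0 and DESeq2 on hg38 were used; whether strand was used in counting is not given in the sources used here. The authors deposited raw counts of reads per gene, without normalization. Their deposited table of fold changes and p-values was not used. The table holds 0 spike-in rows, so no spike-in scaling was made, and 0 per-sample columns were left unused. Control columns carry the code ad, which the labels do not explain, and were matched as the arm beside wd. Replicates are separate passages, and the labels' source names conflict with the titles, which were followed.

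The quasi-likelihood test of edgeR 4.0.16 (R 4.3.3) was run on these counts after TMM scaling, with 6 groups in 1 fit and 12 residual degrees of freedom. The filter kept genes whose highest normalized count was above 130.3, where the smoothed Jaccard index between replicates (HTSFilter's criterion, recomputed) was highest. P-values were adjusted by Benjamini-Hochberg over the 12287 genes kept, and those under 0.05 were called; SEs came from the F statistic and 95% intervals from 12 degrees of freedom. The fit was tested on simulated counts. Same-numbered libraries of the 2 hairpins were checked for shared deviations from their group means over the tested genes. The correlations were 0.553, 0.32 and 0.16 in BoM, all above 0.1, so the numbers were taken to pair the BoM libraries, and blocked values stand beside BoM results whose call they change; in LM2 and BrM3 1 of 3 pairs each stayed below 0.1. Library pairs within a group were no duplicates (chi-square per gene of at least 5.09). Members and lists were chosen with earlier results of these data known. Named genes are the members, WDR5, up to 3 tested genes per list with the smallest p in any line, called neighbours, and the 5 (ARMCX2) or 3 most correlated genes. Gene positions and lengths are from GENCODE 44, promoter windows from RefSeq. Alternatives were DESeq2 1.42.0, other filters, a replicate block, a correction for GC content and leaving out each library. Others were each line alone for responses, and the shCtrl libraries of all 3 lines alone for control levels.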

Additional observations from a re-analysis of the deposited data

How the results depend on the processing

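The 135 values were recomputed to give 1952 further values, of which 1740 were labelled as the same. For tested values that label meant the same direction and call. Untested values had it when they moved by less than the spread between replicates. Counts could change and keep the label, as the LM2 genes called did with 779 and, by DESeq2, 1158. Genes called in LM2, BrM3 and BoM numbered 779, 1347 and 1991, and became 1465, 2334 and 3249 with a replicate block, 2012, 3049 and 3514 with GC correction, and 3481, 4605 and 4897 with both. In fits of 1 line the counts were 290, 1604 and 938. Over the fits without 1 library they ran from 387 to 1014 in LM2, 759 to 1623 in BrM3 and 1185 to 2368 in BoM, lowest without LM2 shWDR5 replicate 1, BrM3 shWDR5 replicate 3 and BoM shCtrl replicate 2. Besides ARMCX2, members called lower in LM2 numbered 0, and 2, 1 and 3 with the block, with GC correction and with both, and 2 by DESeq2 (0 to 1 without 1 library). In BrM3 the block gave 1 lower, and the block with GC correction 1 lower and 2 higher. In BoM 1 was lower, and 0 with no filter and in the fit of BoM alone, and 2 with the block and with the block and GC correction, which also gave 2 higher; without 1 library 0 to 2 were lower and 0 to 1 higher. For the response difference of BrM3 and LM2, 1 gene was called, and 0 with filterByExpr, 16 with no filter, 8 with the block, 12 with GC correction, 45 with both and 18 by DESeq2 (0 to 2 without 1 library). For BoM and LM2 it was 0, and 27, 6, 32, 92 and 41 with no filter, the block, GC correction, both and DESeq2 (0 to 7 without 1 library, 7 without BoM shWDR5 replicate 1); the block with GC correction called 1 member, ARMCX6. For BoM and BrM3 it was 1, and 9, 0, 3, 8 and 4 in the same settings (0 to 1 without 1 library). Members lower in BoM than LM2 controls numbered 1, and 0 with no filter. They numbered 2 with GC correction and with the shCtrl libraries alone (0 to 2 without 1 library). The cause of these changes was not tested.

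Values near 0 changed sign. ARMCX1 in BrM3 was 0.042 with filterByExpr, 0.0387 with no filter, 0.0311 with GC correction, 0.0299 with the block and GC correction, 0.0158 alone and 0.0065 by DESeq2, and -0.0664 to 0.0396 without 1 library. ARMCX4 in BoM minus LM2 was 0.0202 with GC correction, 0.0453 with the block added and -0.1666 to 0.1011 without 1 library. Without 1 library, ARMCX3 spanned -0.0209 to 0.2634 in BrM3 and -0.0173 to 0.2672 in BoM minus BrM3, ARMCX5 from -0.0499 to 0.0997 in BoM minus LM2 and from -0.1086 to 0.0967 in BoM minus BrM3, and ARMCX6 from -0.0517 to 0.1936 in BoM minus BrM3. With group means removed, r was -0.1056 for ITGBL1 with ARMCX1 and -0.2119 for OVCH2 with ARMCX6.

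The replicate numbers are not said to mark shared passages across hairpins, and the reported fit, chosen before the check of pairing, has no block. Deviations of same-numbered libraries correlated at -0.168 to 0.725 (mean 0.359, against -0.193 for other pairs), above 0.1 for 2 of 3 pairs in LM2 and 2 of 3 in BrM3. Not every library correlated best with its own number. In LM2 the block, which leaves 6 residual degrees of freedom, called ARMCX4 (adjusted p = 0.0297) and ARMCX6 (0.0145), and in BrM3 ARMCX4 (0.0476). It changed no other member's call in these lines. A block within lines cannot adjust control levels compared between lines and gave no value there. Totals from 17485841 counts upward set the precision, and 145 counts was the fewest for any member in a library.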
